A study of Homo sapiens with 6 samples.

Results

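The Wnt ligands, their receptors and the proteins that restrain them were examined in U251 cells, a human glioma line. They were chosen by gene symbol, with earlier results of these data known: the WNT ligands, Frizzled receptors (FZD), the co-receptors LRP5, LRP6, ROR1, ROR2 and RYK, the secreted antagonists of the SFRP and DKK families with FRZB and WIF1, the inhibitors NOTUM and APCDD1, the Dishevelled proteins (DVL) and the TLE corepressors. Of 19775 genes with a probe set of their own on the array, 52 were members, read by 114 probe sets. A probe set is a group of short oligonucleotides that reads 1 transcript. FZD8, PORCN, WNT3 and WNT3A, which the same rule covers, had no probe set to themselves in the annotation used and were not analysed here.

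RNA was measured on 6 Affymetrix arrays, 3 from U251 cells that stably overexpressed PARK2 and 3 from control U251 cells that stably overexpressed GFP in its place. PARK2 codes for parkin, an E3 ubiquitin ligase. Both lines were made by viral infection with polybrene and then selected with puromycin, so the control cells carry that handling too. The labels give neither the promoter of the transgene nor the number of infections or clones, and they call the 3 arrays of each group biological replicates without saying whether they came from separate cultures or infections. A p-value here reflects the spread of these arrays alone, and the test takes much of each gene's spread from other genes of like intensity.

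In Wnt signalling a secreted, lipid-modified ligand binds a Frizzled receptor. With the co-receptors LRP5 or LRP6 this stabilises beta-catenin, which then works with TCF/LEF factors in the nucleus, where TLE proteins otherwise hold target genes silent. Other ligands, WNT5A and WNT5B among them, mostly act through Frizzled receptors with ROR or RYK on cell polarity and movement, without beta-catenin. SFRP, FRZB and WIF1 proteins bind the ligands outside the cell, and DKK1 blocks LRP5 and LRP6. In glioma the pathway is studied for its part in stem-like growth and invasion.

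Of the 52 members, 33 passed a filter on dim probe sets and were tested. Array medians ran from 16.2 to 19.3 intensity units in PARK2 cells and from 16.7 to 18.4 in control cells. Pearson correlations of log2 values were 0.984 to 0.988 between arrays of a group and 0.969 to 0.973 between groups. The ratio of the 3′ to the 5′ control probe set ran from 3.53 to 5.66 for actin and from 1.02 to 1.17 for GAPDH. For actin it was highest in replicate 1 of both groups (5.66 in PARK2 and 5.31 in control cells). Of 10 glial and glioma markers, 8 passed the filter, among them GFAP, VIM, NES and SOX2, while OLIG2 and CHI3L1 lay under it. GFAP and SOX2 were higher and S100B was lower in PARK2 cells. Of 5 epithelial markers KRT8 and KRT18 passed the filter and EPCAM, CDH1 and KRT19 did not, of 3 endothelial markers PECAM1 and KDR passed and CDH5 did not, and of 4 leukocyte markers CD3E passed and PTPRC, CD14 and AIF1 did not. Of those that passed only KRT18 changed, falling, and the 5 epithelial markers summed to 131 to 138 units in PARK2 arrays and 209.99 to 316 in control arrays. The summed level of the 5 neuronal markers was 5677 to 6083 intensity units in PARK2 arrays and 4125 to 4575 in control arrays, most of it from TUBB3. TUBB3 and SNAP25 were higher, MAP2 did not pass the threshold (-0.26), and RBFOX3 and SYP lay under the filter. That of the 5 fibroblast markers was 5725 to 6845 and 4534 to 5937, with COL1A2 higher and PDGFRA lower. The part of these shifts in the values below was not tested, and in a bulk sample fewer cells of a kind and less RNA per cell cannot be told apart.

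PARK2 cells had more transcript of WNT5A, WNT5B, the Frizzled receptors FZD1, FZD2, FZD5 and FZD7, the antagonists SFRP1 and SFRP4, DVL3 and TLE1. They had less of FZD3, FZD4, LRP5, RYK, DKK3 and TLE3. Thus 10 tested members rose and 6 fell at an adjusted p under 0.05, in limma's test over 13720 genes. The 16 are 48.5% of the 33 tested, where 28.8% of all genes tested passed, 13.3% of them higher and 15.6% lower. The tested members had a median of 0.05 in log2 fold change, beside -0.0026 over all genes tested. PARK2 and control arrays did not overlap for 21 of the 33 (63.6%), beside 39.5% of all genes tested. A filter can favour genes that are bright in 1 group, so the count was also taken over all 52 members without it. Then 10 rose and 6 fell, 30.8% of the members beside 15.2% of all genes (7.08% higher and 8.11% lower), and the groups did not overlap for 24 members (46.2%, beside 30.8% of all genes). WIF1 came in among the higher ones and SFRP4 dropped out.

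**Figure D1:**
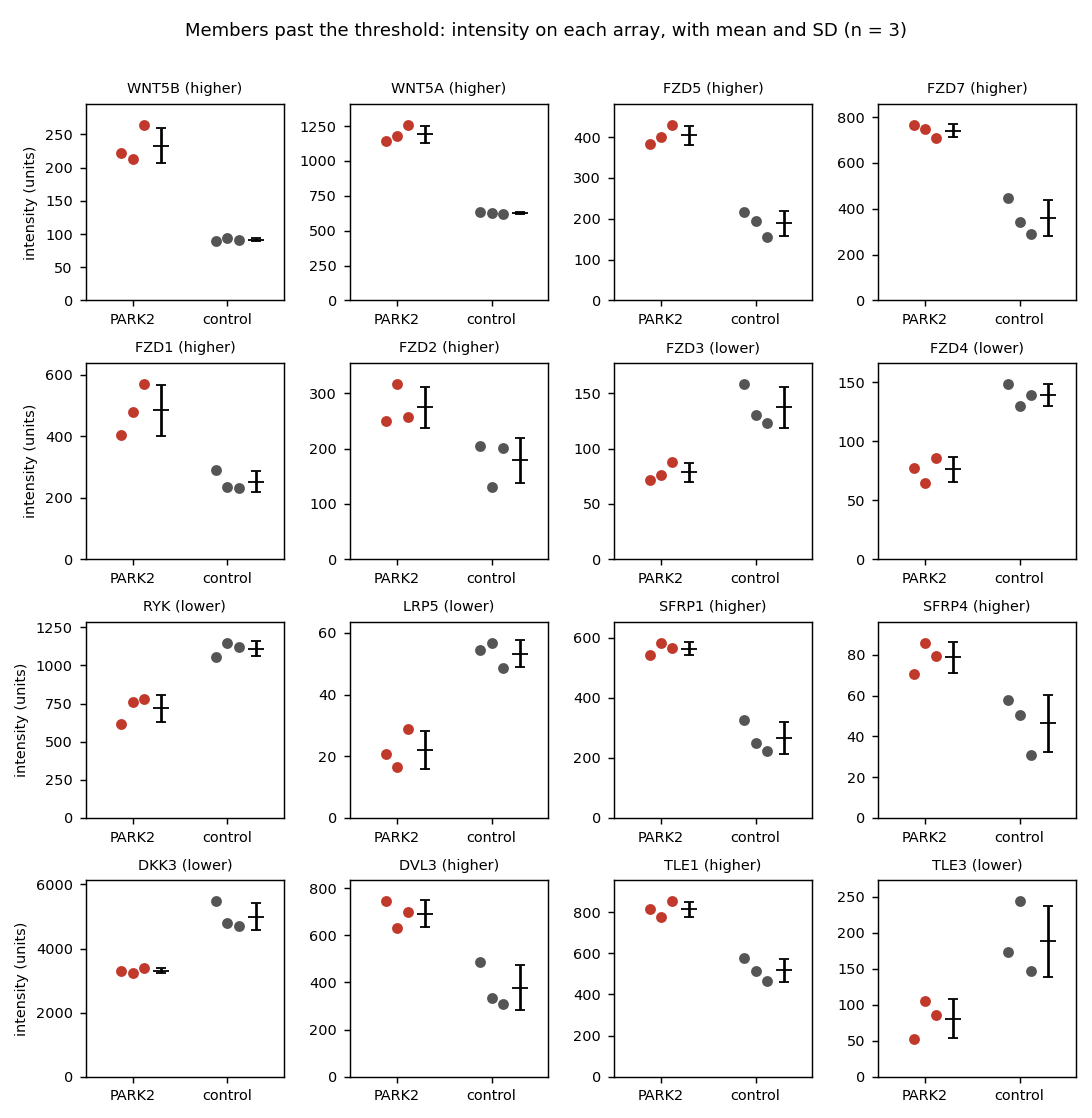
Intensity (units, linear axes from 0) of the 16 members past the threshold on each array, PARK2 (red) left of control (grey), with the mean and SD of 3 arrays beside each group. In every panel the 3 PARK2 arrays lie on one side of the 3 control arrays.

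Among the ligands, the WNT5 pair rose. WNT5A measured 1139, 1176 and 1256 intensity units on the PARK2 arrays and 633, 627 and 619 on the control arrays. The groups lay far apart, and the control arrays were nearly level. Its mean was 1190.4 ± 59.6 in PARK2 cells and 627 ± 7.01 in control cells (SD, n = 3 each), or 0.91 in log2 fold change (SE 0.14, adjusted p 3.3e-07 by limma). Fold changes here are on the log2(intensity + 16) scale, which understates the change of dim genes. The other WNT5A probe set gave a larger change of 1.52, at 1412 ± 248 in PARK2 cells and 478 ± 31.2 in control cells (adjusted p 8.3e-07 with each probe set tested separately). Without control replicate 2 that probe set became the brightest, and WNT5A was at 1.47. WNT5B measured 222, 214 and 264 units in PARK2 cells and 89.2, 94.5 and 91.2 in control cells. Every PARK2 array was far above the control arrays. The log2 fold change was 1.21 (SE 0.17, adjusted p 2.2e-08 by limma). The other WNT5B probe set past the filter was dim, at 29.1 ± 11.1 units in PARK2 cells and 13.7 ± 5.97 in control cells. Its groups overlapped and it did not pass (0.59, adjusted p 0.089 with each probe set tested separately).

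The other 4 tested ligands were dim and did not pass. WNT2B averaged 20.9 ± 4.28 units in PARK2 cells and 18.5 ± 3.64 in control cells, and WNT6 50.1 ± 4.96 and 53.5 ± 3.07. WNT16 was at a log2 fold change of -0.08 and WNT9A, the member just above the filter, at 0.01, with adjusted p from 0.82 to 0.98 by limma for these 4. The remaining 11 of 17 ligand genes lay under the filter, with WNT10B the nearest to it at a mean of 8.80 units against 10.1 for WNT9A. They include WNT1, WNT2, WNT4, WNT7A, WNT7B and WNT11, and the arrays do not settle whether these genes are silent or only dim.

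The stretches of 250 bases before an annotated start of both WNT5 genes and of 4 other members that changed are shown as examples. The arrays do not tell from which start a transcript came, so the use of these promoters was not tested. The stretches are from RefSeq (GRCh38.p14), 5′ to 3′ on the gene's strand, with GC boxes (GGGCGG, the SP1 motif, on either strand) in capitals. WNT5A (chr3:55487307-55487556, minus strand, a start inside the gene's span, which ends at 55505263), WNT5B (chr12:1616806-1617055, plus strand), FZD1 (chr7:91264183-91264432, plus strand) and FZD5 (chr2:207769907-207770156, minus strand) rose, and FZD4 (chr11:86955396-86955645, minus strand) and TLE3 (chr15:70097918-70098167, minus strand) fell.
WNT5A: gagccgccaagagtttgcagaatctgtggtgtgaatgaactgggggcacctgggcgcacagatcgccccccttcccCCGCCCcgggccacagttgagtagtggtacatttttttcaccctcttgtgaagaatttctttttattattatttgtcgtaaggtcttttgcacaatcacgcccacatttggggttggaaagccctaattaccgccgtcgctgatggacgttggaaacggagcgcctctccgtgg
WNT5B: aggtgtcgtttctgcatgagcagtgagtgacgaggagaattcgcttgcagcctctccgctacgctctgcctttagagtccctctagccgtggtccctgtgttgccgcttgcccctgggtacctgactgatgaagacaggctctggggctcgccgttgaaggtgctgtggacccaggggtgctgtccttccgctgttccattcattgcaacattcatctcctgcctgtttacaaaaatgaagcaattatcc
FZD1: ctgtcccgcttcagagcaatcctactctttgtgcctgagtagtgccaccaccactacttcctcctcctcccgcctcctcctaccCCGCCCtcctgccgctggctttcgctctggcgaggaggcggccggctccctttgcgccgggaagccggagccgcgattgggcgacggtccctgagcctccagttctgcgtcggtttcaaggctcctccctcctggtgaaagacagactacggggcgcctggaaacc
FZD5: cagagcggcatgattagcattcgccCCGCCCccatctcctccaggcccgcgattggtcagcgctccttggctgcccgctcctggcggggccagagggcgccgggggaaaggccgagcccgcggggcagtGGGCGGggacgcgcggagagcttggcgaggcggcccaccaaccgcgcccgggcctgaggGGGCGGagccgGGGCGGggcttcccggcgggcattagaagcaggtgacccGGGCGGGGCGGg
FZD4: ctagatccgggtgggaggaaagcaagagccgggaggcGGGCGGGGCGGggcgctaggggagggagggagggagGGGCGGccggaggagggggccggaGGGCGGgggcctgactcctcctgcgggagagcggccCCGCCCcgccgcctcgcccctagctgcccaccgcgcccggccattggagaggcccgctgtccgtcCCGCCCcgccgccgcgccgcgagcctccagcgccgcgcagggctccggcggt
TLE3: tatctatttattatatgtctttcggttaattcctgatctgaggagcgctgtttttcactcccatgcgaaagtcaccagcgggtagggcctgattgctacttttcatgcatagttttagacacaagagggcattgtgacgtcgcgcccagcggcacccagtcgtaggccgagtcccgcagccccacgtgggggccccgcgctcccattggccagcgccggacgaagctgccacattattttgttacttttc

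These promoters differed in make-up within each direction. The stretch of FZD5 is 76.8% G and C with 6 GC boxes, some of them overlapping, and that of FZD4 80.8% with 6, although their transcripts moved in opposite directions. FZD1 (65.2%, 1 GC box), WNT5A (52.8%, 1), WNT5B (54.8%, none) and TLE3 (53.6%, none) are closer to the median of all 35116 promoters, 58.0%. The table matched 38 of the 52 members, whose median was 72.2%. A GC box was found in 32 of the 38, and in 42.6% of all promoters. Each member had 1 stretch, while the 35116 were not reduced to 1 per gene or limited to genes on the array. The members and all promoters are thus unlike sets, and whether their shares differ for like genes was not tested. The TCF/LEF core, searched as CTTTGAT or CTTTGTT on both strands, was found in 1 of the 38, DKK1, and in 6.595% of all promoters. Among the 11 matched members past the threshold, 9 held a GC box and 0 the TCF/LEF core. A match is only a match of letters in this window.

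Of the 7 Frizzled receptors tested, 4 rose and 2 fell (85.7%, beside 28.8% of all genes). FZD1, FZD2 and FZD7 are close relatives in sequence, and all 3 rose. FZD7 measured 764, 747 and 708 units in PARK2 cells and 447, 343 and 292 in control cells. The 3 PARK2 arrays were close to each other and above every control array, with 1.02 in log2 fold change (SE 0.15, adjusted p 1.7e-07 by limma) and 0.77 on its other probe set. FZD1 measured 404, 479.6 and 569 units in PARK2 cells and 291, 234 and 232 in control cells. The PARK2 values were more spread than the control values but did not overlap with them (0.89, SE 0.16, adjusted p 6.9e-06). FZD2 measured 250.006, 317 and 257 units in PARK2 cells and 204, 131 and 201 in control cells. Here the groups came closest, and the change of 0.59 (SE 0.17, adjusted p 0.0046) lost its call without control replicate 2 (0.40, adjusted p 0.15) or PARK2 replicate 2 (0.49, adjusted p 0.074).

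FZD5, from another Frizzled subfamily, also rose. It measured 383, 399.7 and 429 units in PARK2 cells and 217, 195 and 156 in control cells, or 1.04 in log2 fold change (SE 0.16, adjusted p 2.9e-07 by limma). No PARK2 array came near a control array. The call rests on a probe set marked _s_at, which may read more than 1 transcript. On the other, dim one, FZD5 averaged 24.9 ± 8.36 units in PARK2 cells and 19.6 ± 12.7 in control cells (0.25, adjusted p 0.51 when _x_at and _s_at probe sets were dropped), and the mean of both was at 0.65. The called members WNT5B, FZD7, SFRP1, SFRP4 and RYK had only probe sets marked _s_at or _x_at.

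FZD3 and FZD4 fell. FZD3 measured 71.9, 75.8 and 88.2 units in PARK2 cells and 159, 131 and 123 in control cells (-0.70 in log2 fold change, SE 0.17, adjusted p 0.0013 by limma). All 4 of its probe sets passed the threshold in the same direction, with changes from -0.89 to -0.70. FZD4 measured 77.1, 64.8 and 86.1 units in PARK2 cells and 148, 129.7 and 139 in control cells (-0.76, SE 0.17, adjusted p 0.00046). For both genes every PARK2 value was under every control value. FZD6, the close relative of FZD3, averaged 924 ± 98.3 units in PARK2 cells and 1158 ± 130 in control cells. At -0.32 (adjusted p 0.082) it did not pass as deposited, but did under quantile normalization (-0.29, adjusted p 0.010), trimmed mean scaling (-0.29, adjusted p 0.011) and median centring (-0.33, adjusted p 0.029). It turned to 0.16 (adjusted p 0.20) after a correction for neighbouring genes, described further on. FZD9 and FZD10, relatives of FZD4, were under the filter at group means of 1.65 to 5.25 units.

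**Figure D2:**
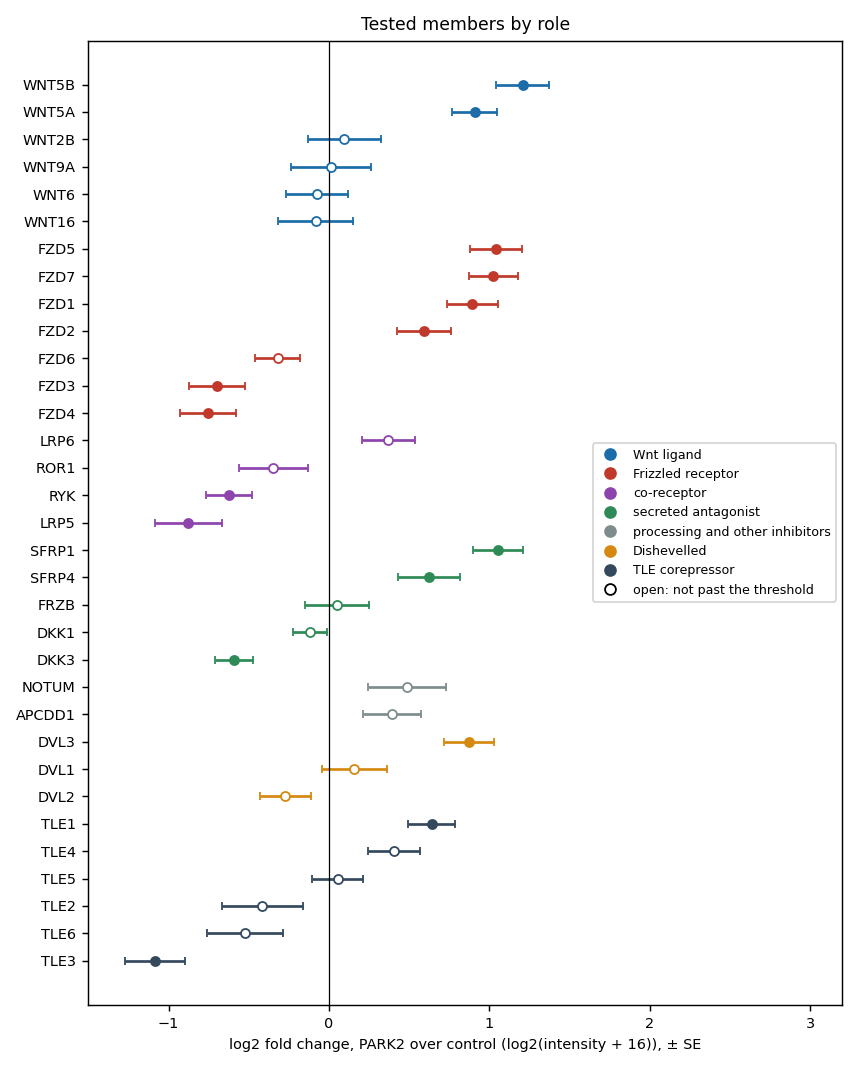
Log2 fold change of PARK2 over control (x axis, ± SE, n = 3 arrays a group) for the 33 tested members, coloured by role. Filled points are past the threshold, 10 to the right of 0 and 6 to the left, from WNT5B at 1.21 to TLE3 at -1.09.

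Of the 4 co-receptors tested, RYK and LRP5 fell (50%, beside 28.8% of all genes). RYK, a Wnt receptor with an inactive kinase domain, measured 616, 759.6 and 779 units in PARK2 cells and 1057, 1149 and 1124 in control cells. The groups were well apart, with -0.62 in log2 fold change (SE 0.14, adjusted p 0.00040 by limma). The 3 RYK probe sets ran from -0.64 to -0.56, and 2 of them passed. LRP5 was dim in both groups, at 20.8, 16.5 and 28.7 units in PARK2 cells and 54.5, 56.8 and 48.5 in control cells. The groups did not overlap (-0.88, SE 0.21, adjusted p 0.00062), but the size of the change depends on the pseudocount, with -0.45 at 64 in place of 16.

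LRP6, the partner of LRP5, averaged 228.8 ± 24.2 units in PARK2 cells and 174 ± 20.3 in control cells on its brightest probe set, or 0.37 in log2 fold change (SE 0.16, adjusted p 0.084 by limma). It passed under quantile normalization (0.38, adjusted p 0.0099), trimmed mean scaling (0.39, adjusted p 0.0070) and median centring (0.36, adjusted p 0.046). It also passed with array weights (0.42, adjusted p 0.0026), after the neighbour correction (0.34, adjusted p 0.028) and without control replicate 1. Its other 2 probe sets pointed the other way, at -0.29 and -0.30, and the mean of the probe sets was at -0.08 (adjusted p 0.79), so no direction is given for LRP6. ROR1, a receptor tyrosine kinase for WNT5A, was at -0.35 (adjusted p 0.24) with overlapping groups. ROR2 lay under the filter, at 2.51 ± 2.98 units in PARK2 cells and 4.22 ± 3.78 in control cells.

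Among the secreted antagonists, SFRP1 and SFRP4 rose and DKK3 fell. SFRP1, which binds ligands through a domain like that of Frizzled, measured 542, 584 and 566 units in PARK2 cells and 327, 249 and 224 in control cells. Even the highest control array stayed far under the lowest PARK2 array (1.05 in log2 fold change, SE 0.16, adjusted p 1.4e-07 by limma). Its other 2 probe sets past the filter were at 0.53 and 0.71 and did not pass. SFRP4 measured 70.6, 85.9 and 79.5 units in PARK2 cells and 57.9, 50.6 and 30.9 in control cells (0.62, SE 0.19, adjusted p 0.010). This call was lost without PARK2 replicate 2 (adjusted p 0.063), without control replicate 3 (0.086), without the filter (0.084), as the mean of the probe sets (0.083) and after a correction for neighbouring genes (0.36).

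DKK3, a divergent member of the Dickkopf family, measured 3302, 3223 and 3382 units in PARK2 cells and 5469, 4811 and 4708 in control cells. The groups were well separated (-0.59 in log2 fold change, SE 0.12, adjusted p 4.4e-05 by limma). Of its 4 probe sets past the filter 3 passed, at -0.59, -0.84 and -1.14. DKK1, the antagonist of LRP5 and LRP6, averaged 7685 ± 153 units in PARK2 cells and 8368 ± 725 in control cells. At -0.12 (SE 0.11, adjusted p 0.46) it did not pass, though each PARK2 array was under each control array, and it passed in the opposite direction after the neighbour correction (0.22, adjusted p 0.028). FRZB was at 0.05 (adjusted p 0.89).

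WIF1, which binds Wnt ligands outside the cell, lay under the filter but stood apart between the groups. It measured 12.1, 16.4 and 12.9 units in PARK2 cells and 1.04, 0.785 and 0.429 in control cells. Both groups are near the bottom of the scale. In the fit without the filter its log2 fold change was 0.83 (adjusted p 0.0023 by limma). Of the 19 members under the filter, SFRP2 and WNT11 also had groups that did not overlap, both lower in PARK2 cells and neither past the threshold without the filter (adjusted p 0.071 and 0.78). SFRP2 averaged 1.04 ± 0.411 units in PARK2 cells and 6.71 ± 2.71 in control cells. The other 16 members under the filter overlapped between groups, and of the 38 group means of the 19, 35 were under 10 units.

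NOTUM, a secreted enzyme that strips the lipid from Wnt ligands, averaged 24.8 ± 3.83 units in PARK2 cells and 14.5 ± 11.5 in control cells (log2 fold change 0.49, adjusted p 0.13 by limma). APCDD1, a membrane protein that binds ligand and receptor, averaged 125 ± 10.5 and 93.5 ± 26.1 units (0.39, adjusted p 0.097), and passed under quantile normalization (0.42, adjusted p 0.028) and trimmed mean scaling (0.42, adjusted p 0.026). In both genes control replicate 1 lay within the range of the PARK2 arrays, and the other 2 control arrays below it. Without control replicate 1 both passed, NOTUM at 0.76 (adjusted p 0.031) and APCDD1 at 0.56 (0.015). Both also passed after the neighbour correction, NOTUM at 0.79 (adjusted p 0.018) and APCDD1 at 0.61 (0.0050), and with array weights (0.031 and 0.0073).

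Inside the cell, the Dishevelled adaptors carry the signal from Frizzled. DVL3 measured 743, 632 and 700.1 units in PARK2 cells and 486, 336 and 308 in control cells. Its groups did not overlap, and it rose by 0.87 in log2 fold change (SE 0.16, adjusted p 7.8e-06 by limma). A dim probe set marked _x_at was at -0.02, and the mean of both at 0.43 (adjusted p 0.039). DVL2 averaged 332 ± 40.1 units in PARK2 cells and 407 ± 79.3 in control cells on its brightest probe set (-0.27, adjusted p 0.21). Its dimmer probe set was lower (-0.77, adjusted p 0.014 with each probe set tested separately), and the mean of the probe sets passed at -0.52 (adjusted p 0.019). DVL1 spread most, with 211, 223 and 350.0 units in PARK2 cells and 290.4, 340.1 and 115 in control cells, with overlapping groups (0.16, adjusted p 0.63).

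TLE proteins are Groucho-type corepressors that bind TCF/LEF factors, and 2 of the 6 changed, in opposite directions (33.3%, near the 28.8% of all genes). TLE3 measured 52.5, 105 and 85.2 units in PARK2 cells and 173, 244 and 148 in control cells. The highest PARK2 array was still under the lowest control array (-1.09 in log2 fold change, SE 0.19, adjusted p 3.2e-06 by limma). All 4 TLE3 probe sets fell, from -1.17 to -0.68. TLE1 measured 813, 775 and 852 units in PARK2 cells and 575, 515 and 464 in control cells, without overlap (0.64, SE 0.15, adjusted p 0.00042). A second TLE1 probe set also passed (0.78), and 3 dimmer ones, from -0.17 to 0.42, did not. TLE1 averaged 0.39 over its probe sets.

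TLE4 averaged 291 ± 29.2 units in PARK2 cells and 217 ± 32.6 in control cells (log2 fold change 0.40, adjusted p 0.052 by limma). It passed under quantile normalization (0.41, adjusted p 0.0066), trimmed mean scaling (0.43, adjusted p 0.0043) and median centring (0.39, adjusted p 0.031). After the neighbour correction TLE4 was at 0.085 (adjusted p 0.59). TLE2 and TLE6 were dim, at -0.42 (adjusted p 0.23) and -0.53 (adjusted p 0.090). TLE5, a short family member that lacks the repeats of the others, was at 0.05 (adjusted p 0.86).

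**Figure D3:**
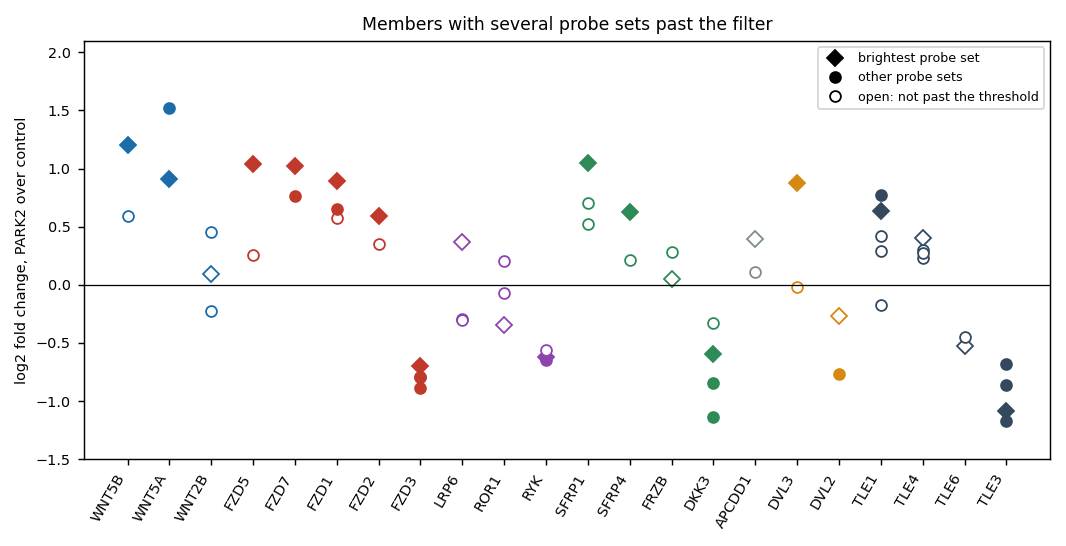
Log2 fold change of PARK2 over control (y axis) for each probe set past the filter, in the 22 members with more than 1, coloured by role as in the plot of fold changes. Diamonds are the brightest probe set and filled symbols are past the threshold with each probe set tested separately. FZD3 and TLE3 have all 4 below 0, while LRP6, ROR1, WNT2B, DVL3 and TLE1 lie on both sides.

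The probe sets of a gene share its transcripts and are no replicates, but they show where a value rests on 1 of them. Of the 16 members past the threshold 14 had more than 1 probe set past the filter. In 12 of these 14 all pointed the same way, DVL3 and TLE1 being the exceptions. At least 2 probe sets passed in 8 of them, and in 6 (FZD2, FZD5, SFRP1, SFRP4, DVL3 and WNT5B) the brightest alone did. In no called member did 2 probe sets pass with opposite signs.

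Several members lay among genes that differed between the lines in the same direction. The measure is the median difference of the 20 nearest tested genes along the chromosome, in log2 units. It was -0.52 around TLE3, 0.41 around SFRP4, -0.33 around LRP5 and -0.30 around FZD4. Among members that had not passed, it was -0.48 around FZD6, -0.34 around DKK1 and 0.32 around TLE4. Around WNT5A it was -0.34, opposite to the rise of the gene itself. When the neighbours' value was subtracted, 15 of the 16 kept their call, and SFRP4 (0.21) lost it. TLE3 was then at -0.57, LRP5 at -0.54 and FZD4 at -0.46 and TLE1 at 0.39, while WNT5A was at 1.24 (adjusted p 1.8e-07 by limma). What the neighbours' differences stem from was not tested.

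Around these members, other genes of the pathway also moved both ways. Of 73 such genes, 58 were tested, of which 10 rose and 16 fell (44.8%, beside 28.8% of all genes), and their median was -0.04 on the log2 scale. Without the filter 8 of the 73 rose and 10 fell, where 15.2% of all genes passed. Of those that changed, RSPO3 and DAAM2 had 1 group mean under the filter's floor of 9.87 units. The R-spondin axis and surface regulators held most of the rises, 6 of 13 tested with 1 fall (53.8%, beside 28.8% of all genes). GPC6, a cell-surface glypican, averaged 751 ± 71.6 units in PARK2 cells and 178 ± 23.3 in control cells (1.99, SE 0.16, adjusted p 3.5e-17 by limma). RSPO3, an R-spondin that enhances Wnt signalling, averaged 39.6 ± 1.00 and 7.04 ± 3.78 units (1.29, adjusted p 5.9e-06, and 2.48 or 0.55 with a pseudocount of 1 or 64), and the glypican GPC4 was at 0.92 (0.57 after the neighbour correction). The R-spondin receptor LGR5 fell to 44.2 ± 3.71 units in PARK2 cells, against 808 ± 66.7 in control cells (-3.77). Another R-spondin receptor, LGR4, rose, at 475 ± 76.7 and 308 ± 75.1 units (0.61, adjusted p 0.0023 by limma). ZNRF3, of the same list, also rose (0.48, adjusted p 0.017). The calls of LGR4 and ZNRF3 were not followed over the alternative settings.

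Of 11 nuclear factors tested 1 rose and 4 fell (45.5%, beside 28.8% of all genes). TCF7L2 averaged 1218 ± 37.0 units in PARK2 cells and 2212 ± 452 in control cells (-0.83 in log2 fold change, SE 0.14, adjusted p 1.3e-06 by limma), and LEF1 235 ± 21.4 and 441 ± 59.3 units (-0.86, SE 0.16, adjusted p 1.2e-05). Both are DNA-binding partners of beta-catenin. The co-activator gene BCL9L (-0.56) and CTBP2 (-0.40) also fell. BCL9L lost its call without PARK2 replicate 1 (adjusted p 0.12) or control replicate 1 (0.059), after the neighbour correction (-0.34, 0.083), without the filter (0.075) and as the mean of probe sets (0.078). CTBP2 lost its call without PARK2 replicate 1, 2 or 3 (0.053 to 0.099), without the filter (0.060) and without the intensity trend (0.088). CTBP1, named after its value was seen, was the 1 that rose (0.36), and its neighbours' median difference was as large (0.40). Of 15 genes of beta-catenin and its destruction complex 1 rose and 3 fell (26.7%, near the share of all genes), with AXIN2, a feedback inhibitor, at 1.25 (1.99 or 0.61 with a pseudocount of 1 or 64), TNKS2 at -0.73 (-0.43 after the neighbour correction), CTNNB1 at -0.45 and CSNK1D at -0.44. The calls of CTNNB1 and CSNK1D were lost after the neighbour correction (-0.12 and -0.05) and without PARK2 replicate 1 (adjusted p 0.065 and 0.088), and that of CSNK1D also without PARK2 replicate 2 (0.15) or control replicate 2 (0.10), with the replicate number as a block (0.064), without the intensity trend (0.062) and as the mean of probe sets (0.33).

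WNT5A is known to feed planar polarity and other branches that work without beta-catenin. Of 14 tested genes of these branches 1 rose and 5 fell (42.9%, beside 28.8% of all genes). The falls of CELSR2 and DAAM2 did not hold with 1 array left out. That of RHOA (-0.33, adjusted p 0.021 by limma) was not followed over the alternative settings. PRICKLE1 averaged 152 ± 21.4 units in PARK2 cells and 358 ± 41.8 in control cells (-1.15 in log2 fold change, SE 0.16, adjusted p 3.3e-08 by limma), and its relative PRICKLE2 187 ± 16.7 and 307 ± 15.6 units (-0.67, adjusted p 0.00072, and -0.40 after the neighbour correction). CELSR2 was at -0.47, but lost its call with the replicate number as a block (adjusted p 0.054) and without PARK2 replicate 1, 2 or 3 or control replicate 2 (adjusted p 0.064 to 0.083). DAAM2, at -0.74 (-0.26 with a pseudocount of 64), was dim and lost its call without PARK2 replicate 1 (adjusted p 0.10) or 3 (0.097). Of 5 feedback and scaffold genes tested 1 rose and 3 fell (80%, beside 28.8% of all genes). The kinase gene TNIK was at 0.71 (0.22 after the neighbour correction, adjusted p 0.12), DIXDC1 at -0.56, DACT3 at -0.55 and CXXC5 at -0.39. DIXDC1 lost its call without PARK2 replicate 1 (-0.37, adjusted p 0.16) or control replicate 2 (0.10), after the neighbour correction (-0.32, 0.17) and without the filter (0.061). CXXC5 lost its call without PARK2 replicate 1, 2 or 3 or control replicate 2 (0.053 to 0.21), without the filter (0.061), without the intensity trend (0.095) and as the mean of probe sets (0.16). The groups overlapped for DACT3, which kept its call in 5 of 20 alternative settings. It lost it under quantile normalization (adjusted p 0.094), trimmed mean scaling (0.099), median centring (0.089), a pseudocount of 1 (0.083), without the trend (0.13) or the filter (0.28), and without PARK2 replicate 1 or 2 or control replicate 1 or 2 (0.079 to 0.44), with -0.27 without control replicate 1 and -0.87 without control replicate 3.

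**Figure D4:**
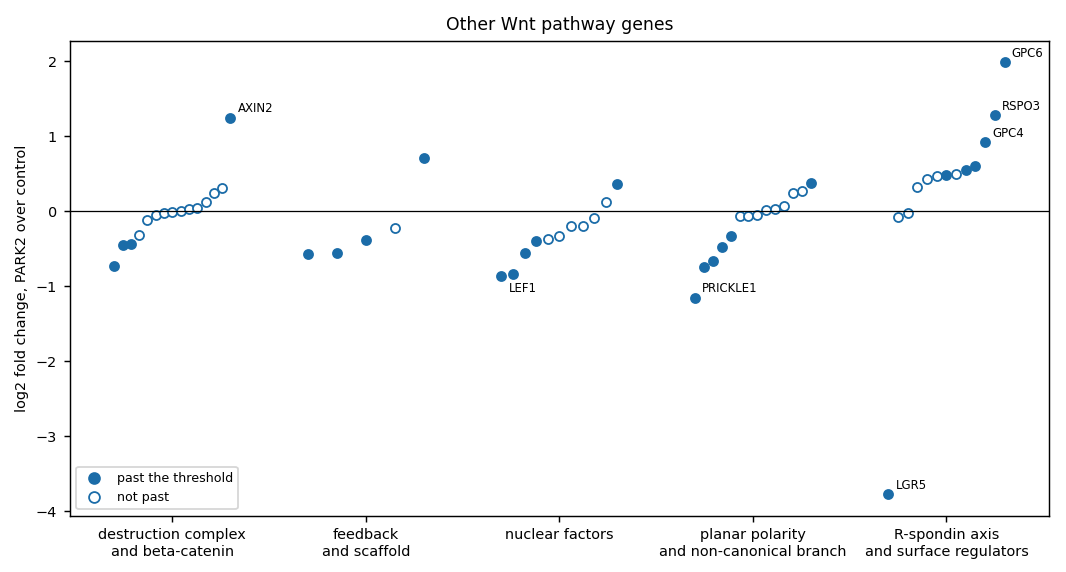
Log2 fold change of PARK2 over control (y axis) for the 58 tested genes of the wider Wnt pathway, in 5 lists (x axis), each sorted by its value. Filled points are past the threshold, and LGR5 at -3.77 and GPC6 at 1.99 lie farthest from 0.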

How the data were processed

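The authors deposited 1 table of linear intensity values for 54675 probe sets on 6 arrays. Per the submitters' processing notes the authors used GCOS and MAS5, with no version, role or scaling target given, and array scaling is unknown. RNA was column-extracted and biotin-labelled, per the labels' protocols. Gene symbols came from the annotation of the array platform, and 1 probe set per gene was kept, that with the highest mean log2 value. Values were turned into log2(intensity + 16) without normalization. Probe sets under the 40th percentile of mean log2 value (9.87 intensity units) were left out, leaving 13720 genes. PARK2 was compared with control by limma 3.58.1 (R 4.3.3; intensity trend; Benjamini-Hochberg over all genes, threshold 0.05; 4 residual and 60.8 prior degrees of freedom); fold changes are PARK2 over control. The code was tested on simulated data. The number of arrays limits precision.

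The members and gene lists were chosen with earlier results of these data known. Named in the text were all members past the threshold, up to 3 tested others per role by smallest p, WNT5A, LRP5, LRP6 and PORCN in any case, members next to the filter, and up to 4 changed genes per other list by size. TLE5, CTBP1, LGR4, ZNRF3, RHOA and the members under the filter other than WNT10B were named after their values were seen. The alternatives changed the filter, pseudocount, scaling, variance model, array weights, probe set choice, block, neighbour correction, threshold and arrays. Probe levels are not compared between genes. The transgene's own level is not reported here, and labels were taken as given.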

Additional observations from a re-analysis of the deposited data

How the results depend on the processing

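The tested members numbered 10 higher and 6 lower in the main setting, and 8 to 14 higher and 6 to 8 lower when 1 array was left out. With a fit that has the replicate number as a block the counts were again 10 and 6, and all 16 calls were kept. Of all genes 20.6% to 33.7% passed with 1 array left out, and 25.2% with the block. Deviations of same-numbered arrays from their group means correlated at 0.17, 0.045 and 0.065 over the tested genes, at 0.22, 0.11 and 0.034 over all probe sets, and at 0.38, 0.16 and 0.12 over probe sets past the filter. In all 3 PARK2 replicate 2 correlated with control replicate 3 (0.069, 0.085 and 0.16) about as well as with its own number. The sets of features thus differ on pairing, and the fit without the block was kept. Among the other pathway genes the block gave 9 higher and 14 lower, and of those with a fit in every setting it ended the calls of CELSR2 (adjusted p 0.054) and CSNK1D (0.064). All 16 calls were kept under pseudocounts of 1 and 64, quantile normalization, trimmed mean scaling, median centring, array weights and without the intensity trend. Without that trend the adjusted p by limma was 0.00036 for WNT5A and 0.0014 for FZD1, against 3.3e-07 and 6.9e-06 with it. For TLE6, which had not passed, it went the other way, from 0.090 to 0.031. Array weights called 23 of 33 members, but also 45.9% of all genes. Without control replicate 1 the higher genes overall numbered 2800 against 1818, and 20 of 34 members passed, beside 33.7% of all genes. Without _x_at and _s_at probe sets 25 members were left, of which 5 were higher and 5 lower, where 26.3% of all genes passed. These 10 were all among the 16. FZD5 lost its call (0.25, adjusted p 0.51 by limma). WNT5B, FZD7, SFRP1, SFRP4 and RYK had no probe set left and could not be checked in this way. The median of the members ran from -0.0058 to 0.13 when 1 array was left out and was -0.04 with array weights.

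Of the other pathway genes 8 were higher and 10 lower without the filter, against 10 higher and 16 lower with it. At a threshold of 0.01, 8 were lower. Of all genes 15.2% passed without the filter and 19.6% at that threshold. When 1 array was left out, 6 to 18 of the other pathway genes were lower and 6 to 14 higher. Changes of sign occurred in members that had not passed. WNT9A was at -0.040 with a pseudocount of 1 and -0.0076 under quantile normalization. With array weights DVL1 was at -0.19 and FRZB at -0.16, and the mean over the LRP6 probe sets was -0.076. After the neighbour correction FRZB was at -0.25, FZD6 at 0.16 and DKK1 at 0.22 (adjusted p 0.028, past the threshold). With 1 array left out WNT16 ran from -0.30 to 0.12, DVL1 from -0.29 to 0.44, FRZB from -0.20 to 0.21 and WNT9A from -0.0086 to 0.15. The cause of these changes was not tested.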
